A study of Mus musculus with 35 samples.

Results

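Endothelial cells (EC) of mouse embryos were compared between the embryonic days E9.5 and E10.5 by ATAC-seq, which counts insertions of a transposase to show where chromatin is open. All libraries labelled EC of either day were taken, which gave 8 of the 35 libraries of the series, 4 a day. Of the 76018 peaks in the deposited table, 67131 had enough counts to be tested. The other libraries are E8.5 EC, haemogenic endothelium (HE) of all 3 days, and the blood populations labelled pro-HSC/HPC, pre-HSC I and pre-HSC II. HE of E9.5 and E10.5, again with 4 libraries a day, was used beside EC because it spans the same days and shares no library with it, although the libraries are not fully independent. EC and HE libraries with the same number and day tended to deviate together from their group means. Their correlations over peaks were 0.13 to 0.33 at E10.5 and 0.05 to 0.17 at E9.5. For unlike numbers they were -0.30 to 0.16 at E10.5 and -0.10 to 0.08 at E9.5. These ranges overlap, and E9.5 EC library 4 was no closer to HE library 4 (0.056) than to HE library 3 (0.063). No label says what same-numbered libraries have in common.

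All cells carry the genotype label 23GFP transgenic, a mouse line known in the field for a GFP reporter under an enhancer of Runx1, a transcription factor needed to form blood from endothelium. The labels give neither the element that drives the reporter nor the sorting gates. Each library came from a pool of 1500 sorted cells, and no label says whether the pools of a day came from separate litters. The p-values of peaks therefore measure only the spread between libraries, which the main fit estimates over all 9 groups of the series. Those titled E10.5 carry the tissue label AGM+VU, where AGM stands for the aorta-gonad-mesonephros region. Samples titled E9.5 carry the tissue label PAS+VU, which names E8.5 in place of E9.5. PAS usually stands for the para-aortic splanchnopleura. Day and dissected tissue therefore change together and cannot be told apart. Peaks are given by position in the build mm9, without gene names, because no annotation of that build was used. For the same reason the endothelial identity of the cells was not checked at marker genes.

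Endothelial cells line blood vessels, and a small share of those in the embryonic aorta, the haemogenic endothelium, turns into blood stem and progenitor cells. Between these days the embryo's main arteries are remodelled under flow. Open chromatin marks promoters and enhancers that proteins can reach. In pools of cells, fewer cells with an open region and less opening per cell cannot be told apart.

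Total counts in peaks ran from 1170513 to 7283508 in the E9.5 EC libraries and from 2117133 to 5371760 in the E10.5 EC libraries. A count of 3 therefore stood for 0.467 to 2.65 CPM (counts scaled to library size) at E9.5 and for 0.594 to 1.41 CPM at E10.5. Correlations of log2 CPM over peaks had a median of 0.882 among E9.5 libraries, 0.878 among E10.5 libraries and 0.884 between days, so libraries of one day were no more alike, by this measure, than libraries of different days. E10.5 library 1 (0.751 to 0.857 against the other 7 libraries) and E9.5 library 3 (0.751 to 0.849) stood lowest, the latter having the fewest counts. The 10% of peaks with the most counts held 57.5% ± 1.04 of the counts at E9.5 and 56.5% ± 3.79 at E10.5 (SD, n = 4 each; exact permutation test, two-sided, p = 0.686, where 0.0286 is the smallest p possible).

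Libraries 3 and 4 of E9.5 EC stood apart at a chromosome X peak, chrX:103380576-103383382. It had 150 and 159 CPM in E9.5 libraries 1 and 2 but 5720 and 2561 CPM in libraries 3 and 4, against 125, 133, 206 and 376 CPM in the E10.5 libraries. The days overlapped, and the exact permutation test gave p = 0.286. The model across all peaks called this peak lower at E10.5 (log2 fold change -3.35 ± 0.68, SE; adjusted p = 0.00793), but the adjusted p was 0.968 without E9.5 libraries 3 and 4 and 0.197 without library 3 alone, and it was 0.0581 without E10.5 library 1. Values without these libraries are given beside the peaks and blocks that lost calls with them.

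Between E9.5 and E10.5, few regions of EC passed the test, and most of those that did were less open at E10.5. At an adjusted p of 0.05, 217 peaks changed (0.323% of those tested). Of these, 171 were lower at E10.5 (0.255%) and 46 were higher (0.0685%). Without a correction, 6141 peaks had p under 0.05. The median log2 fold change over all peaks tested was 0.04. The scaling of libraries takes most peaks as unchanged, so this median could not show a fall shared by most peaks.

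**Figure D1:**
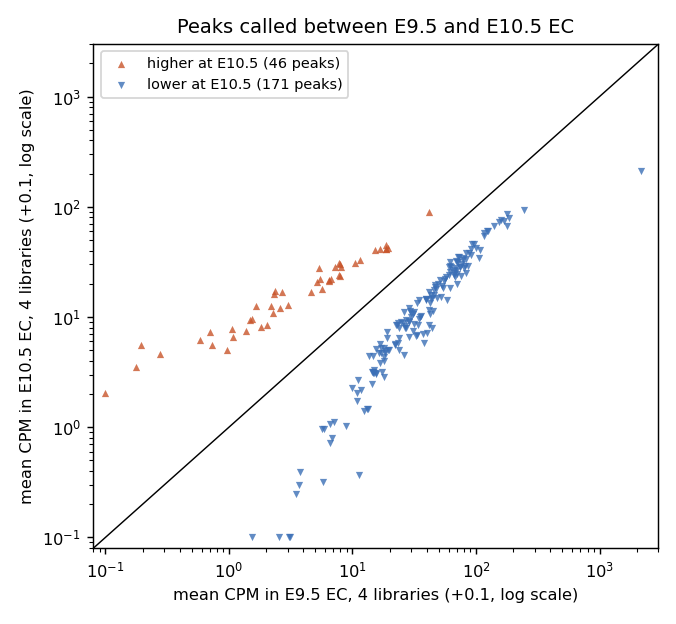
Mean CPM over 4 libraries of each peak called between the days, in E9.5 EC (x) and E10.5 EC (y), on log scales with the small constant named on the axes added so that 0 can be drawn. The 46 higher peaks lie above the line of equal levels and the 171 lower peaks below it, and the lower peak at the far right is the chromosome X peak that rests on E9.5 libraries 3 and 4.

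The lower peaks started from a higher level and the higher peaks from a low one. Over the 171 lower peaks, the median level went from 35.2 to 10.6 CPM, with a median log2 fold change of -1.60. Over the 46 higher peaks it went from 3.71 to 16.9 CPM, with a median of 2.18. Those medians follow from the choice of the peaks and are given as a description. Among the called peaks with more than 3 counts on each day, the 165 lower ones fell 1.99-fold to 34.2-fold (median 2.98-fold) and the 42 higher ones rose 2.12-fold to 15.7-fold (median 3.84-fold). All 4 libraries of one day lay beyond all 4 of the other day in 164 of the 171 lower and 44 of the 46 higher peaks. Over all peaks tested, such separation was seen in 4.38% downward and 3.93% upward. The same 8 libraries gave the calls, so this separation describes the called peaks and does not support them.

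How many peaks passed depended on the libraries and on the fit. With DESeq2 865 peaks passed, and in a fit of the 8 EC libraries alone 1208 of the 48385 peaks tested there, 930 lower and 278 higher. Leaving out 1 of the 8 libraries at a time gave between 68 calls (without E10.5 library 1) and 175 calls (without E10.5 library 2). A call was kept in all 8 of these fits by 38 of the 171 lower peaks but by 1 of the 46 higher peaks. Without E9.5 libraries 3 and 4, 75 peaks passed, 68 lower and 7 higher, and 70 of them were among the 217.

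Peaks were chosen for naming from called peaks whose libraries do not overlap between the days, so the separation noted beside them follows from that choice. The peak with the smallest adjusted p was chr1:71982882-71983946, which lost most of its signal. It had 31.3, 41.6, 37.1 and 40.1 CPM in the E9.5 libraries and 3.77, 5.15, 3.46 and 10.6 CPM in the E10.5 libraries. The highest E10.5 library was well below the lowest E9.5 library. Its log2 fold change was -2.68 ± 0.35 (SE, adjusted p = 9.74e-06), and -3.88 after the 8 EC libraries were thinned to the smallest total among them. At chr8:123343615-123344674 the 4 values a day were close together, 39.6, 37.8, 46.0 and 38.0 CPM at E9.5 and 7.07, 6.34, 8.65 and 6.45 CPM at E10.5. The days did not overlap, and the log2 fold change was -2.49 ± 0.37 (adjusted p = 0.000169).

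Other lower peaks began at a higher level and kept a part of it. At chr13:89635792-89637075 the level was 96.7, 82.6, 56.6 and 63.7 CPM at E9.5 and 19.8, 24.8, 22.2 and 26.7 CPM at E10.5 (log2 fold change -1.69 ± 0.26, adjusted p = 0.000254). At chr9:86270400-86271516 it was 76.3, 80.5, 83.1 and 94.6 CPM at E9.5 and 24.98, 22.4, 25.1 and 26.7 CPM at E10.5 (-1.75 ± 0.28, adjusted p = 0.000607). In both peaks the lowest E9.5 library stood above the highest E10.5 library. At chr9:115669349-115670471, the strongest at E9.5 of the 12 lower peaks that the selection rule named, the mean was 107 ± 11.1 CPM at E9.5 and 34.02 ± 9.47 CPM at E10.5 (SD, n = 4 each).

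Other lower peaks began at a middle level. At chr3:148425106-148426455 the values were 47.8, 57.8, 36.2 and 38.7 CPM at E9.5 against 8.48, 14.3, 10.4 and 11.4 CPM at E10.5 (-2.01 ± 0.33, adjusted p = 0.000607). At chr3:96125743-96127288 they were 47.8, 44.8, 38.9 and 45.7 CPM against 4.71, 8.72, 6.92 and 10.8 CPM (-2.48 ± 0.40, adjusted p = 0.000607). Neither peak had overlapping days. The mean of chr5:98306971-98307966 fell from 41.3 ± 10.2 to 8.36 ± 2.87 CPM and that of chr14:77113447-77114673 from 42.4 ± 7.34 to 10.52 ± 3.25 CPM.

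The peak chr8:124608109-124608320 had the largest fall among the 12. Its libraries had 11.7, 11.3, 13.3 and 8.80 CPM at E9.5 and 0, 0.198, 0.577 and 0.293 CPM at E10.5. All 4 E10.5 libraries were at or under the level of 3 counts, and the log2 fold change of -5.10 ± 0.87 (adjusted p = 0.00115) rests on these few counts. Its mean was also low in E8.5 EC (2.73 CPM) and in E9.5 HE (1.39 CPM), so E9.5 EC stood above each of them. Of the 12 lower peaks named by the selection rule, 11 kept their call in every alternative that could be computed for them, 16 to 18 each, including the fit without E9.5 libraries 3 and 4. The exception, chr8:8037807-8038475, had an adjusted p of 0.0518 without those libraries and 0.0854 after thinning the 8 EC libraries to the smallest total among them. The rule favours small adjusted p-values and the alternatives refit the same libraries, so kept calls follow in part from the choice. Over all calls, 28 of the 171 lower and 0 of the 46 higher peaks kept the call in every alternative that could be computed.

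**Figure D2:**
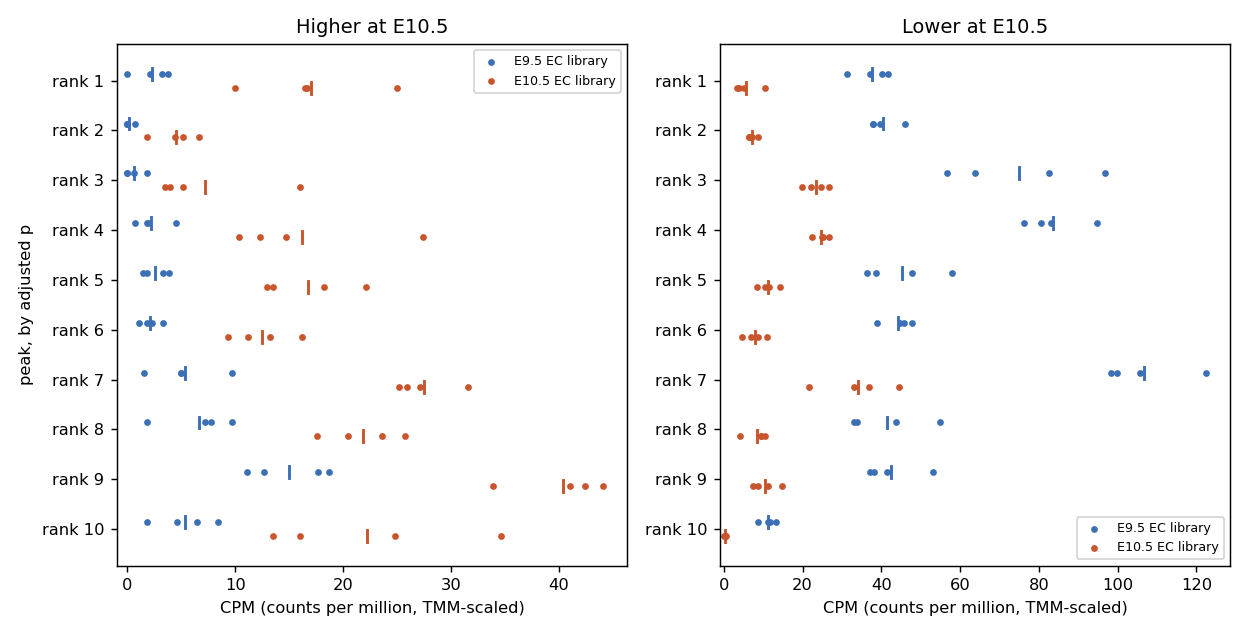
CPM, on linear scales from 0, of the 10 higher and the 10 lower peaks with the smallest adjusted p under the selection rule, by rank; each point is 1 library and the vertical bars are means over 4 libraries. The rule takes only peaks whose days do not overlap, and no E9.5 library of the higher peaks is above 18.6 CPM.

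The higher peaks with the smallest adjusted p had few counts at E9.5. At chr15:17065291-17066027, the higher peak with the smallest adjusted p, the E9.5 libraries had 3.74, 3.24, 0 and 2.11 CPM and the E10.5 libraries 24.98, 16.6, 16.4 and 9.97 CPM. The lowest E10.5 library was above all E9.5 libraries, with a log2 fold change of 2.62 ± 0.49 (adjusted p = 0.00331). The call was lost, with an adjusted p of 0.135, without E9.5 libraries 3 and 4, where the fold change was 2.25 on the log2 scale, while after thinning it was 4.32 (adjusted p = 0.00106). At chr13:102395796-102396264 the 4 E9.5 libraries together held 2 counts and the E10.5 libraries 56 counts. The ratio of these counts, scaled by library size, was 31.2 (exact 95% interval 8.23 to 264, for counting error only). In the EC libraries 55.8% to 78.2% of counts from 10 to 49 were even, so reads may not be independent and this interval may be too narrow. The call was lost without E9.5 library 1 (adjusted p = 0.0618), without E9.5 library 2 (0.0564) and after thinning (0.0819).

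Other higher peaks also lost the call with fewer libraries, while the fitted change stayed positive. At chr9:8487712-8488198 the E9.5 libraries had 0.623, 0, 1.77 and 0 CPM and the E10.5 libraries 16.03, 3.96, 5.19 and 3.52 CPM (3.97 ± 0.77, adjusted p = 0.00411). E10.5 library 1 was far above the other three, and without it the log2 fold change was 3.28 (adjusted p = 0.0619). Without E9.5 library 2 it was 3.40 (0.0662). At chr2:6384828-6385839 the level rose from 6.60 ± 3.40 to 21.8 ± 3.57 CPM (SD, n = 4; log2 fold change 1.597 ± 0.34, adjusted p = 0.0128), and without E9.5 libraries 3 and 4 it was 1.37 (adjusted p = 0.253). It was 1.57 without E9.5 library 1 (0.0702), 1.41 without E9.5 library 3 (0.0643) and 1.47 without E10.5 library 2 (0.0575), but 2.49 after thinning (adjusted p = 0.00265). Each of these peaks passed with all libraries and missed the threshold in some smaller sets, which does not show that a left-out library carried the change.

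Some higher peaks had a clear level on both days. At chr13:90655341-90656078 the values were 12.6, 11.1, 17.7 and 18.6 CPM at E9.5 and 42.4, 33.9, 44.1 and 41.0 CPM at E10.5 (1.46 ± 0.32, adjusted p = 0.0145). The lowest E10.5 library was above the highest E9.5 library, and the fitted rise was 2.76-fold. The call was lost without E9.5 library 1 (adjusted p = 0.110), E9.5 library 2 (0.135), E10.5 library 1 (0.0515) or E10.5 library 4 (0.0522), with log2 fold changes of 1.36, 1.30, 1.44 and 1.42. Thinning also lost the call (adjusted p = 0.0834). At chr13:78622492-78623149 the values were 1.56, 4.96, 9.72 and 4.93 CPM at E9.5 and 31.6, 27.1, 26.0 and 25.2 CPM at E10.5 (2.56 ± 0.53, adjusted p = 0.00954). The 4 E10.5 libraries lay close together and above all E9.5 libraries, but the call was lost without E9.5 library 1 (2.14, adjusted p = 0.127) or library 2 (2.57, adjusted p = 0.0630). It was lost after thinning as well (adjusted p = 0.0535). All 13 higher peaks named by the selection rule lost the call in at least 1 alternative, and each kept it in at least 8. Their adjusted p-values in the main fit, 0.00331 to 0.0423, were larger than those of the named lower peaks, 9.74e-06 to 0.00176. The kept calls of the named peaks therefore do not compare the directions on equal terms.

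Some of the lower peaks lay close together along the genome. With called peaks of the same direction joined when at most 50 kb apart, all 46 higher peaks stood alone, though so short a list has fewer chances of neighbours. The spacing of the lists was not tested. Of the lower peaks, 136 stood alone, and the others formed 9 pairs, 2 groups of 3, a group of 4 and a group of 7. The group of 7 was chr13:21946801-22064119, a stretch of 117 kb in which all 19 tested peaks had a negative log2 fold change (median -1.09). Without E9.5 libraries 3 and 4, chr13:21998233-22000294 kept its call (adjusted p = 0.0454), while the other called peaks of this group had 0.0597 to 0.253. The group of 4, chr3:96205549-96232850, spanned 27.3 kb and had 8 tested peaks, all negative (median -1.24). The groups of 3 were chr13:23360785-23401208, where all 6 tested peaks were negative, and chr3:96125743-96145583, where all 4 were. Without E9.5 libraries 3 and 4, chr13:23360785-23362890 kept its call (adjusted p = 0.0408), and the others of its group did not (0.256 and 0.108). In the chromosome 3 group, at least chr3:96125743-96127288 (0.00666) and chr3:96136112-96139111 (0.0229) kept theirs. All these groups end at called lower peaks, so the signs within them follow in part from that choice. Chromosomes 13 and 3 had the highest shares of lower peaks, 0.643% and 0.515%, with 20 each.

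These groups fell into a pair of broader blocks, whose borders were drawn at called lower peaks after the calls were seen. Their EC shares of lower calls, signs and library medians follow in part from that choice and are given as a description. The block chr13:21340802-23599651 is 2.26 Mb long and held 16 of the 171 lower peaks (9.36%) among 123 tested peaks, so that 13% of its peaks were called lower, against 0.255% of all peaks tested. Of those 123, 108 had a negative log2 fold change, with a median of -0.63, while 46.8% of all peaks tested were negative. Its median level over peaks was 4.33 to 4.71 log2 CPM in the E9.5 EC libraries and 3.59 to 4.10 in the E10.5 EC libraries, with no overlap. The block chr3:95497286-96232850 is 0.736 Mb long and held 8 lower peaks (4.68%) among 65 tested (12.3%). It begins at a called peak that stood alone and started 628 kb before the next called peak. In this block 52 of 65 were negative (median -0.44), and the library medians were 3.26 to 3.51 log2 CPM at E9.5 and 2.44 to 3.04 at E10.5.

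Peaks that fell in the chromosome 13 block started from different levels. The large peak chr13:23503042-23505625 had 136, 148, 209 and 224 CPM at E9.5 and 49.02, 79.0, 79.6 and 60.4 CPM at E10.5 (-1.41 ± 0.25, adjusted p = 0.00176). The call was kept without any single library and lost without E9.5 libraries 3 and 4 (adjusted p = 0.193). At chr13:21359129-21360650 the mean fell from 33.1 to 6.77 CPM (-2.31 ± 0.41), and this call was kept in all 18 alternatives. The count of calls in the blocks moved with the libraries while the median did not change sign. Without E10.5 library 4 the chromosome 13 block had 4 lower calls, as it did without E9.5 libraries 3 and 4, and the chromosome 3 block had 2 without E10.5 library 1 and 3 without E9.5 libraries 3 and 4. Over all alternatives the median log2 fold change stayed between -0.74 and -0.55 in the first block and between -0.58 and -0.35 in the other.

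The blocks were drawn from EC calls and not from changes in HE. HE libraries still entered the same fit, with its filter, scaling and estimate of the spread, so their values are not independent of that choice. They also tended to deviate together with the EC libraries of the same number and day, as given above. On chromosome 13, 8 of the 123 peaks were called lower in HE from E9.5 to E10.5 (6.5%, against 0.495% of all peaks tested), and 93 of 123 were negative (median -0.48). On chromosome 3 none of the 65 was called in HE, while 49 were negative (median -0.28). Over all peaks tested, 50.8% were negative in HE (median -0.01). As background, the mouse genes for the histones made during DNA replication lie in clusters on chromosomes 13 and 3, and the RefSeq table of GRCm38.p6 lists 53 and 10 histone genes on these chromosomes. That table is of another build, so no peak was assigned to a gene, and whether the blocks overlap the clusters was not tested.

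**Figure D3:**
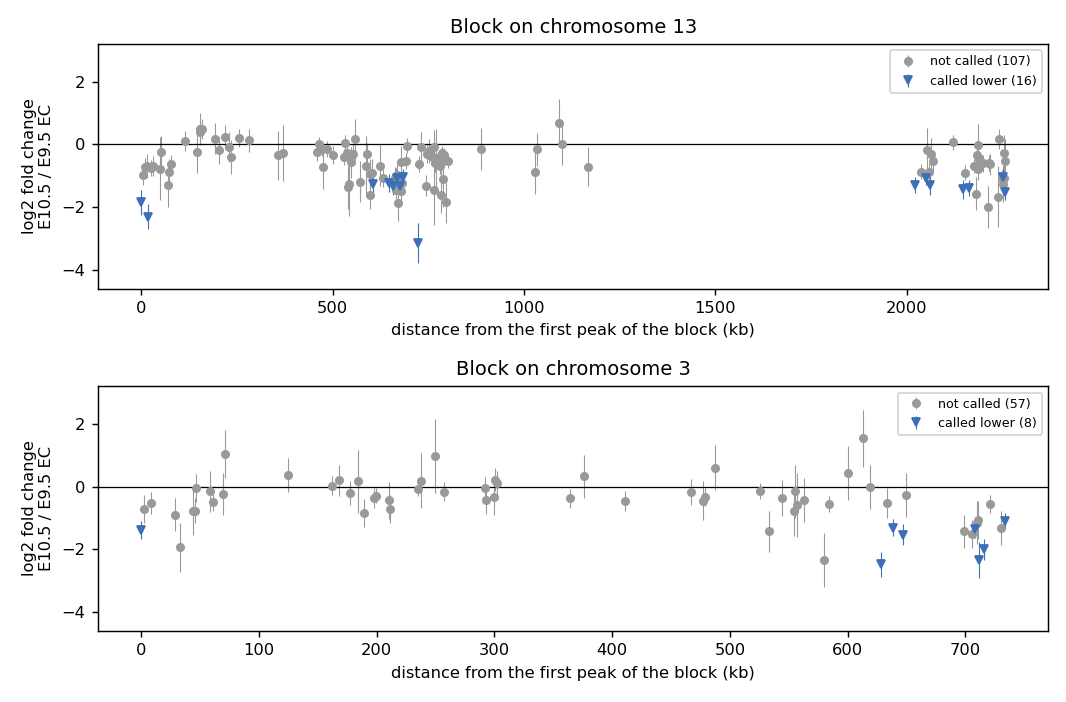
Log2 fold change (E10.5 against E9.5 EC) of each tested peak in the chromosome 13 and chromosome 3 blocks, by distance in kb from the first peak of the block; vertical lines are 1 SE and triangles are the 16 and 8 peaks called lower. Most points lie below 0, which holds for 108 of 123 peaks on chromosome 13 and for 52 of 65 on chromosome 3.

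Nearly all peaks called in EC had a change of the same sign in HE, and a minority of them passed the test there. HE changed at 374 peaks from E9.5 to E10.5 (0.557%), 332 lower (0.495%) and 42 higher (0.0626%). The HE count also moved with the fit, with 1353 calls with DESeq2, 101 in a fit of the 8 HE libraries alone and 112 to 854 when single libraries were left out. All 171 peaks lower in EC had a negative log2 fold change in HE, with a median of -1.25 against -0.01 over all peaks, and 65 of them were called lower there (38% of the EC list and 19.6% of the HE list). Of the 46 higher peaks, 45 were positive in HE with a median of 0.81, and 3 were called higher (6.52% of the EC list and 7.14% of the HE list). In the other direction, 321 of the 332 peaks lower in HE were negative in EC (median -0.91) and 40 of the 42 higher in HE were positive in EC (median 0.99). Day and tissue change together in HE as they do in EC, and the part of the deviations that same-numbered libraries share in these matches was not tested. Both comparisons also share the fit and its estimate of the spread.

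Among the named peaks the sign in HE was the same in each case. The 10 lower peaks with the smallest adjusted p were all negative in HE and 8 were called. At chr9:86270400-86271516 the fall was from 32.2 to 5.35 CPM in HE (log2 fold change -2.60 ± 0.34, adjusted p = 6.92e-06). At chr1:71982882-71983946 the fall in HE was -1.95 ± 0.37 on the log2 scale (adjusted p = 0.00235). The remaining pair, chr3:96125743-96127288 (-1.37, adjusted p = 0.15) and chr8:124608109-124608320 (-0.55, adjusted p = 0.88), did not pass in HE. The peak called higher in both with the most signal was chr13:78622492-78623149, which went from 5.49 to 34.1 CPM in HE (2.63 ± 0.52, adjusted p = 0.00388). The others were chr13:102395796-102396264 (2.31 in HE, adjusted p = 0.0477) and chr16:77500136-77500778, which is outside the selection rule and was singled out after its values were seen. The latter had 1.87, 2.29, 0 and 1.41 CPM in E9.5 EC and 13.2, 10.9, 9.23 and 3.52 CPM in E10.5 EC, with no overlap. Its log2 fold change was 2.44 ± 0.55 in EC (adjusted p = 0.0211) and 2.10 ± 0.51 in HE (adjusted p = 0.0273). The EC call was lost in 6 of the 8 fits that left out a library, with an adjusted p up to 0.103 (without E10.5 library 1), and it was 0.287 without E9.5 libraries 3 and 4.

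**Figure D4:**
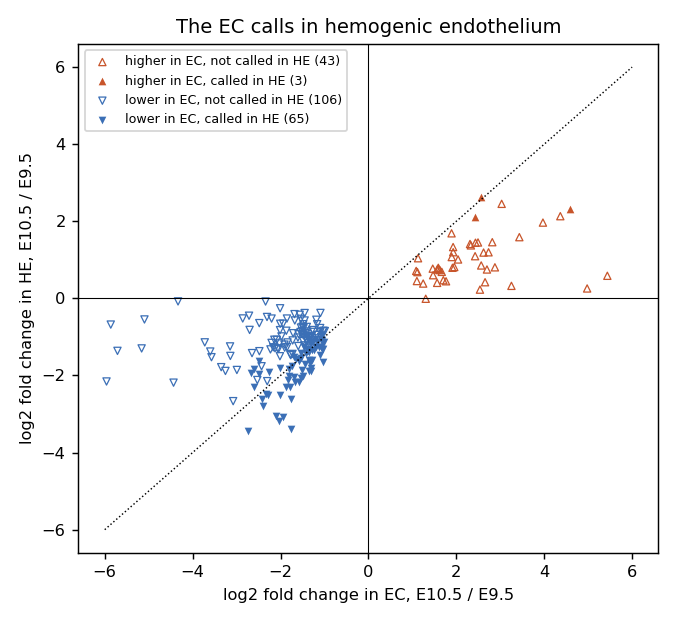
Log2 fold change from E9.5 to E10.5 in EC (x) and in HE (y) for the 217 peaks called in EC, with filled symbols for those also called in HE and a dotted line of equal change. All 171 lower peaks have a negative value in HE and 45 of the 46 higher peaks a positive one.

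No peak called in EC passed the test of a different change in HE. The test of the difference between the changes called 0 of 67131 peaks (0%) with edgeR and 0 with DESeq2, while 1770 had an unadjusted p under 0.05 and the smallest adjusted p was 0.297. Among the 217 peaks called in EC, 40 had an unadjusted p under 0.05 in this test. They include chr8:124608109-124608320, where EC fell and HE was already low at E9.5 (unadjusted p = 0.000526). The EC libraries that gave the calls also enter this test, which favours small p-values among the called peaks. The count of 40 is therefore only a description. With day and number together as a block, which pairs same-numbered EC and HE libraries of a day and was added after seeing the data, 1 of 57882 peaks passed and 2781 had an unadjusted p under 0.05. None of the 212 peaks called in EC that were tested there passed, while 55 of them had an unadjusted p under 0.05, a count with the same limit. The peak that passed, chr2:152002705-152003500, was singled out by this test. It had 30.4, 21.9, 15.9 and 22.9 CPM in E9.5 EC and 22.6, 57.1, 74.1 and 48.1 CPM in E10.5 EC. In HE it had 39.1, 35.8, 31.9 and 29.0 CPM at E9.5 and 8.05, 23.8, 39.2 and 7.26 CPM at E10.5, and the days overlapped in both cell types. The change in EC minus that in HE was 1.94 on the log2 scale (adjusted p = 0.0257), and 1.83 without the block (adjusted p = 1.00). A missed threshold does not show that changes are equal.

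Levels in the other groups are given as a description, since the peaks were chosen for a wide gap between the EC days and another group can fall between them for that reason alone. A group's level at a peak is here its mean over libraries. Over the 46 higher peaks the median level was 2.01 log2 CPM in E9.5 EC, 3.51 in E9.5 HE, 4.09 in E10.5 EC and 4.58 in E10.5 HE. Over the 171 lower peaks it was 5.16 in E9.5 EC, 4.35 in E9.5 HE, 3.40 in E10.5 EC and 2.96 in E10.5 HE. Over all peaks the medians of the 4 groups were between 2.36 and 2.47. An example is chr15:17065291-17066027, which had 2.27 CPM in E9.5 EC, 11.7 in E9.5 HE, 17.0 in E10.5 EC and 27.1 in E10.5 HE.

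At the called peaks, levels in E8.5 EC were more often near those of E9.5 EC than those of E10.5 EC. The median level was 1.53 log2 CPM over the higher peaks and 4.91 over the lower peaks in E8.5 EC. Its mean level was nearer to E9.5 EC than to E10.5 EC in 39 of 46 higher (84.8%) and 121 of 171 lower peaks (70.8%). The same share over all peaks tested was not computed, so whether it is particular to the called peaks was not tested. Levels in E8.5 HE were also low over the higher peaks (2.26) and high over the lower peaks (5.38). At chr13:89635792-89637075 the HE mean was 96.9 CPM at E8.5, 42.8 at E9.5 and 14.5 at E10.5. A counterexample is chr8:124608109-124608320, named above, with a level in E8.5 EC far below that of E9.5 EC.

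In the blood populations the lists behaved differently from each other. Over the higher peaks the median was 2.72 log2 CPM in pro-HSC/HPC of E9.5, 4.04 in pre-HSC I and 2.22 in pre-HSC II of E10.5. Over the lower peaks it was 3.98, 3.10 and 2.80. Thus pre-HSC I was near E10.5 EC over the higher peaks, while pre-HSC II was low there. The pre-HSC II median over all peaks was also the lowest, at 2.25. Total counts in the pre-HSC II libraries ran from only 456770 to 1241216, so that 3 counts stood for 2.23 to 5.24 CPM. The low pre-HSC II levels over the higher peaks lie near that floor. For the lower peaks the medians of single libraries overlapped between pre-HSC I (2.96 to 3.73 log2 CPM) and pre-HSC II (2.95 to 3.43). At chr15:17065291-17066027 the mean was 20.4 CPM in pre-HSC I and 4.54 in pre-HSC II, and at chr13:78622492-78623149 it was 17.7 and 7.98.

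**Figure D5:**
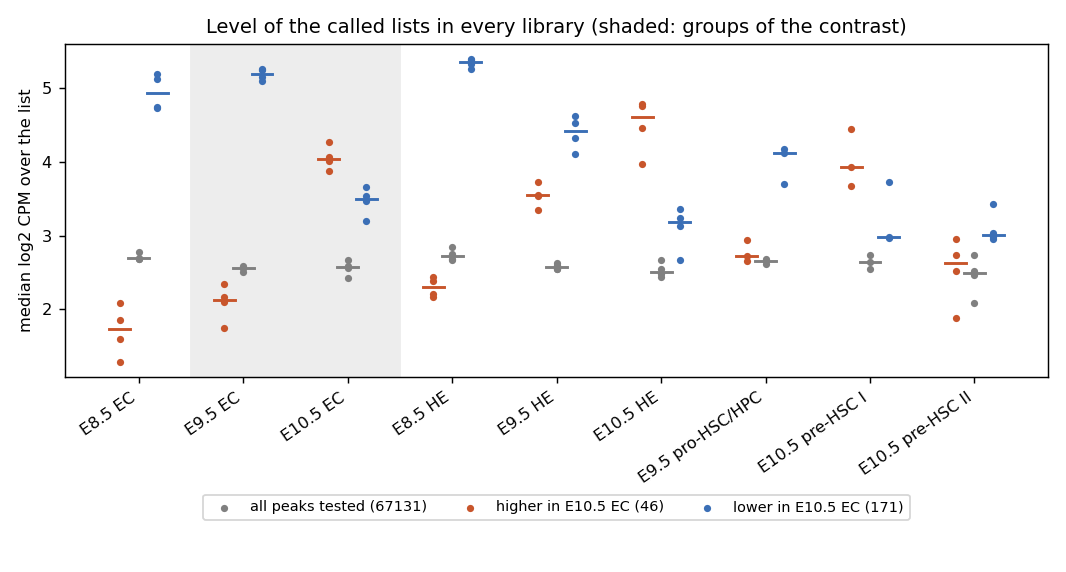
Median log2 CPM over the 46 higher, the 171 lower and all 67131 tested peaks in each library (points), with the median over the libraries of a group as a bar and the EC days compared in the shaded area. The higher list lies at 1.75 to 2.35 in the E9.5 EC libraries and 3.87 to 4.27 in the E10.5 EC libraries, and the lower list at 5.10 to 5.27 and 3.204 to 3.66.

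Lower peaks were wide. Their median width was 1089 bp, against 663.5 bp for the higher peaks and 547 bp for all peaks tested. The share called lower was 0.0274% of peaks up to 300 bp wide, 0.258% of those from 500 to 1000 bp, 0.719% from 1000 to 2000 bp and 0.772% above 2000 bp. Called peaks also had more counts than most, with a median over EC libraries of 22.5 CPM for lower, 10.1 CPM for higher and 5.04 CPM for all peaks. The share called lower was 0.0449% under 5 CPM and 0.775% from 20 to 50 CPM, and that called higher was largest from 10 to 20 CPM, at 0.17%. How width and level each bear on these shares was not tested separately.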

How the data were processed

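The series holds 35 ATAC-seq samples. The authors deposited raw read counts per peak, not normalized, in 1 table. The submitters' processing notes name the build mm9 and list MACS2 2.0.1, DiffBind 1.14.6, Bowtie 1.0.0, bedtools 2.17.0, Trim Galore 0.3.1, deepTools and SAMtools. Their roles, the read filters and any shift of reads to the transposase's cut are not given in the sources used here. Libraries were amplified with 13 PCR cycles, per the labels' protocols, and no molecular identifiers were used in the counts, so intervals and floors cover counting error only. Positions are copied from the table, and no source states whether they count from 0 or 1.

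Groups were taken from titles. Libraries 2 and 3 of pre-HSC I, which differed by less than the sampling noise, were averaged and counted as 1 sample, which left 34. Peaks low in counts were removed by filterByExpr (8887 peaks). TMM factors scaled the rest, and edgeR 4.0.16 tested them two-sided by its quasi-likelihood functions glmQLFit and glmQLFTest in 1 fit with a mean per group and 25 residual degrees of freedom, with Benjamini-Hochberg adjustment over 67131 peaks. Such adjusted p-values and log2 fold changes with SE (the change divided by the square root of F) are the ones given. Log2 CPM used a prior count of 2, while CPM is the count scaled by the TMM library size, given as mean ± SD. Differences of single values were tested by exact permutation. DESeq2 1.42.0, other scalings (limma 3.58.1 for cyclic loess), thinning and left-out libraries were alternatives. R 4.3.3, Python 3.11.15, numpy 2.4.6, pandas 2.3.3 and matplotlib 3.10.9 were used.

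The members and lists were chosen with earlier results of these data known. Peaks were named by rule. In each direction it takes the 10 smallest adjusted p among called peaks that changed 1 or more on the log2 scale with no overlap of the libraries, the 5 largest changes among those with at least 20 CPM at the higher day, and the 3 longest runs of called peaks within 50 kb. Ties for the last run are all given. Blocks join called lower peaks on a chromosome up to 2 Mb apart, in or outside runs, around runs of at least 3. They were defined after seeing the calls. Gene lists, markers, motifs and sequences were not used here, since no genome or annotation of mm9 was used.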

Additional observations from a re-analysis of the deposited data

Results flagged for a closer look

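Values of single libraries were compared with the other 3 of their group by the ratio of the largest gap to the range, for 58 sets of 4 libraries, and 4 sets had a ratio above Dixon's 95% critical value. Chance gives such a ratio in about 1 of 20 sets, which is close to the number found.

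In E9.5 EC, library 4 had 0.7037 CPM at chr13:102395796-102396264 while the other 3 libraries had 0. In E10.5 EC, library 1 had 16.03 CPM at chr9:8487712-8488198 against 3.52 to 5.19 CPM in the others. In E10.5 EC, library 4 had 4.105 CPM at chr5:98306971-98307966 against 9.43 to 10.4 CPM in the others, and this peak was lower than in all E9.5 EC libraries in each of the 4. The TMM factor of E9.5 EC library 3, the library with the fewest counts, was 0.9764 against 0.888 to 0.902 in the others.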

How the results depend on the processing

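For EC, 217 calls became 865 with DESeq2 (193 shared with the 217) and 1208 in a fit of the 8 EC libraries alone (201 shared). They became 75 without E9.5 libraries 3 and 4, and 68 to 175 when single libraries were left out. With RLE, total-count or cyclic loess scaling, no filter or thinned counts there were 183 to 320 calls, but after thinning the 8 EC libraries to the smallest total among them 84 were shared with the 217. Lower calls outnumbered higher calls in each of these. In the chromosome 13 block the 16 lower calls became 25 with RLE scaling, 33 with DESeq2 and 36 in the fit of the EC libraries alone. For HE, 374 calls became 1353 with DESeq2, 101 in a fit of the HE libraries alone, 221 without the E9.5 libraries high at the chromosome X peak (EC 3 and 4 and HE 4, chosen after seeing the data), and 112 (without E9.5 library 2) to 854 (without E10.5 library 3) when single libraries were left out. The test of the difference between EC and HE gave 0 calls in every alternative run except 1 call with day and number together as a block (chosen after seeing the data). Over the named peaks, 384 of 445 values under alternatives kept the call, 61 lost it and 0 changed sign; the most were lost among the 13 higher peaks, 10 without E9.5 library 2 and 9 each by thinning and without E9.5 libraries 3 and 4. The causes were not tested. Levels under 2.65 CPM rest on fewer than 3 counts in the shallowest E9.5 EC library.

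With the replicate number as a block, in a fit of the compared groups alone, EC had 1066 calls (199 shared) and HE 26. Same-numbered libraries of different days did not deviate together, with correlations of their deviations from the group means of -0.06, 0.07, -0.03 and 0.00 in EC and 0.00, 0.18, -0.06 and -0.02 in HE, and not every library was most like the one with its own number. The numbers are therefore not treated as pairs across days.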

Other observations

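The peaks that changed in EC were also looked up in comparisons that use none of the 8 EC libraries. Between E10.5 HE and pre-HSC II, 7872 peaks were lower in pre-HSC II, and these held 29 of the 46 peaks that were higher in E10.5 EC (63% of the EC list and 0.368% of the 7872, against 0.0685% of all peaks tested). They held 20 of the 171 lower peaks (11.7% and 0.254%, against 0.255% of all peaks tested). The 4122 peaks higher in pre-HSC II held 1 of the 46 and 23 of the 171 lower peaks (13.5% of the EC list and 0.558% of the 4122). The median EC log2 fold change was -0.01 over the 7872 and -0.05 over the 4122 peaks, against 0.04 over all peaks tested. Between E9.5 HE and pro-HSC/HPC, the 735 peaks lower in pro-HSC/HPC held 15 of the 171 peaks lower in E10.5 EC (8.77% and 2.04%) and 5 of the 46 higher ones (10.9% and 0.68%), with a median EC log2 fold change of -0.25. The 432 peaks higher in pro-HSC/HPC held 1 higher and 0 lower peaks. At E8.5, the 873 peaks higher in HE than in EC held 2 of the higher and 9 of the lower peaks (0.229% and 1.03% of the 873), and the 88 peaks lower in HE held 0 of either. No test was made of these overlaps, and the lists share the fit and its estimate of the spread with the EC comparison.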
